A study of Mus musculus with 2 samples.

Results

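The 10 genes described here encode the glucose transporter Slc2a1 and enzymes of glycolysis (Hk1, Hk2, Gpi1, Aldoa, Gapdh, Pgk1, Eno1 and Pkm) together with lactate dehydrogenase A (Ldha), which acts on the pathway's end product. They were chosen by symbol, under a rule that uses no measured value, and are 10 of the 55415 features counted. The cells were mouse embryonic stem cells, pluripotent cells that self-renew in culture. The line carried 2 reporters: GFP under the promoter of the endogenous retrovirus MERVL, which marks a transient state resembling the embryo at its 2-cell stage (2C-like), and H2B-mIFP, a far-red chromatin label for tracking cells. The study asked what becomes of cells that enter this state. It holds 2 single-cell libraries, one per reporter state: MERVL GFP positive cells (the positive library below) and MERVL GFP negative cells (the negative library). Both groups carry both reporters, and the labels give no further treatment, passage, culture medium or clone number and do not say how the groups were separated. The label for batch repeats the group, and the effects of these cannot be told apart. With 1 library per group no test was possible, differences have no replicate check, and every interval is a 95% interval that covers counting error only.

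The positive library held 4603 cells and the negative library 3832, of which 4596 and 3832 passed the cell filter. The median cell had 29554.5 and 39099.5 UMIs (counted molecules), and the median mitochondrial share was 2.56% and 1.60%. The libraries shared 3 cell barcodes. Levels are given in CPM, the usual scaling of a gene's UMIs to the sum of all UMIs in a library or class of cells. GFP was at 205 CPM in the positive and 0.454 CPM in the negative library, and the summed Zscan4a to Zscan4f transcripts, which mark the 2C-like state, at 322 and 0.627 CPM. After each cell was thinned to 10000 UMIs, 61.5% of positive-library cells had a GFP UMI, against 0.366% in the other library, which should lack it. How much free GFP transcript reached cells of the positive library was not measured. Cells too shallow to thin, 194 in the positive and 8 in the negative library, were set aside in that step. A list of 7 stem cell identity genes was at 2489 and 2876 CPM. Of these 7, Nanog was higher in the positive library, at 410 and 192 CPM, and the other 6 were lower. A list of 16 primitive endoderm genes was at 1104 and 466 CPM. The 8 trophoblast genes were at 41.5 and 51.4 CPM (1 of them, Tfap2c, at 18.4 and 39.5 CPM, the other 7 being higher in the positive library). The 8 fibroblast genes were at 12.9 and 3.15 CPM, 2 of them being at 0 in the negative library.

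Glycolysis turns glucose into pyruvate in the cytosol with a net gain of ATP, and lactate dehydrogenase can turn pyruvate into lactate, which regenerates the NAD the pathway needs. Pluripotent stem cells in culture rely strongly on it. When oxygen is low, hypoxia-inducible factors raise the transcription of many of its genes through short response elements built around the letters ACGTG, along with genes such as Bnip3, a mitophagy receptor, and Ndrg1, a stress-responsive gene used as a hypoxia marker.

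The sequences below are shown because members were higher in cells with more Ndrg1 and Bnip3 UMIs, and promoter stretches let the shared letters be read directly. In the RefSeq promoter windows of 300 bases around a start site (GRCm38.p6), ACGTG was searched on both strands, so that CACGT is the same motif on the other strand. CACGTG, the palindromic E-box, contains it. At least 1 window held ACGTG for 8 of the 10 members, the exceptions being Gpi1 and Eno1, and for Bnip3. Among all genes in that table, 21.8% of 26994 had such a window, and 8.09% had CACGTG, as did Ldha and Bnip3. A match of 5 letters describes the sequence and is not evidence of a bound site. Capitals mark the matches, each stretch is written 5′ to 3′ on the gene's strand, and only stretches that overlap no exon in the GENCODE M21 annotation are printed, which leaves out the matches of Slc2a1 and Pkm, and those of Hk1 and Gapdh, which lie past the start site. Of the 10 members and the hypoxia pair, all but Ndrg1 matched an entry of the table.
Hk2, chr6:82774646-82774704, minus strand: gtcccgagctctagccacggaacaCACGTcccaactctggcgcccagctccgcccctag
Hk2, chr6:82774472-82774536, minus strand: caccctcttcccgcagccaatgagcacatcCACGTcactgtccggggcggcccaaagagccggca
Aldoa, chr7:126799346-126799410, minus strand: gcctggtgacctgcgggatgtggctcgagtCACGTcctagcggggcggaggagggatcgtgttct
Pgk1, chrX:106186920-106186984, plus strand: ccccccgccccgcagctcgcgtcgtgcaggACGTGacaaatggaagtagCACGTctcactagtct
Ldha, chr7:46845629-46845694, plus strand: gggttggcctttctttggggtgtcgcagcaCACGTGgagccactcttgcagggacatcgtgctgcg
Ldha, chr7:46845726-46845791, plus strand: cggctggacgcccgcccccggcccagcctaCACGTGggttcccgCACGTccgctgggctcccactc
Bnip3, chr7:138909579-138909644, minus strand: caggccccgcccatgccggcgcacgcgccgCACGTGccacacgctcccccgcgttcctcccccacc
The Pgk1 stretch holds a pair of matches facing opposite ways, and the second Ldha stretch holds the E-box and a further match close behind it.

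Between the libraries, scaled to all UMIs, the members differed by at most 1.41 times. Together they came to 6393 CPM (6379 to 6406), or 0.639% of all UMIs, in the positive library and to 6973 CPM (6960 to 6986), or 0.697%, in the negative one. Slc2a1 was the one member clearly higher in the positive library on this scale, with a log2 ratio of 0.49 that was 0.20 with TMM factors. Pgk1, Eno1, Hk1 and Hk2 were lower there by between 1.23 and 1.31 times. None of the 10 passed a ratio of 1.5 in either direction on the log2(CPM + 1) scale, whereas 17.6% of the 8042 genes with at least 10 CPM in a library and 50 UMIs in all were at least 1.5 times higher and 4.89% at least 1.5 times lower. The median log2 ratio, positive over negative, was -0.15 over the members and 0.14 over all genes compared. These counts depended on scaling: with TMM factors the medians were -0.45 and -0.16, Pgk1, Eno1, Hk1 and Hk2 were past 1.5 lower, and so were 16.1% of all genes, beside 8.60% higher. On the CPM scale 2 members lay above 0 and 8 below it, beside 5104 and 2938 of the 8042 genes. Among the 8, Gpi1 was at -0.0003, with an interval that included no difference.

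Slc2a1 (Glut1, chr4:119108711-119137983, plus strand; coordinates here are those of GENCODE M21 on GRCm38) carries glucose across the plasma membrane. It had 25764 UMIs or 186 CPM (184 to 189) in the positive library and 20648 UMIs or 132 CPM (130 to 134) in the negative library, a ratio of 1.41 (1.39 to 1.44). Slc2a3 (Glut3), the other main glucose transporter of these cells and one of 33 further pathway genes in the feature table, was at 741 CPM (737 to 746) and 328 CPM (326 to 331), a ratio of 2.26 (2.23 to 2.28). Both transporters were thus higher in the positive library, Slc2a3 by more.

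The hexokinases, which trap glucose in the cell by phosphorylating it, were lower in the positive library. Hk1 (chr10:62268855-62379908, minus strand), the broadly expressed form, was at 15.95 CPM (15.3 to 16.6) against 20.3 (19.6 to 21.1), which made it the least counted member. Hk2 (chr6:82725025-82774454, minus strand), the inducible form, was at 59.1 CPM (57.8 to 60.4) against 72.9 (71.5 to 74.2), 1.23 times lower. The antisense gene Hk1os had 0.817 and 0.627 CPM, and whether strand was used in counting is not given in the sources used here.

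The enzymes of the middle of the pathway did not move as one. Gpi1 (chr7:34201330-34230336, minus strand), which isomerises glucose-6-phosphate, was at 133 CPM in both libraries, with an interval of the ratio from 0.980 to 1.02. Aldoa (chr7:126795234-126800751, minus strand), which splits the sugar into a pair of triose phosphates, was at 678 CPM (674 to 683) against 774 (770 to 778). Gapdh (chr6:125161715-125166467, minus strand), which reduces NAD in the first step after the split, was at 2644 CPM (2635 to 2652) against 2868 (2860 to 2877). The last 2 were lower in the positive library by 1.14 and 1.08 times. A further feature also named Aldoa had 6 and 3 UMIs and is not included.

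Pgk1 (chrX:106187100-106203699, plus strand), the first step that makes ATP, differed most among the members that were lower: 489 CPM (485 to 493) in the positive library and 639 (635 to 643) in the negative, 1.31 times lower. Eno1 (chr4:150236721-150248879, plus strand), which makes phosphoenolpyruvate, followed with 276 CPM (274 to 279) against 360 (357 to 363), 1.30 times lower. Its near copy Eno1b had 43.7 and 43.2 CPM, and how reads were divided between them is not given in the sources used here, so the Eno1 level is uncertain. Pkm (chr9:59656368-59679375, plus strand), the pyruvate kinase that closes the pathway, was at 1059 CPM (1053 to 1064) against 1049 (1043 to 1054), and Ldha (chr7:46841475-46855627, plus strand) at 852 CPM (847 to 857) against 924 (920 to 929). The difference for Pkm was the smallest after that of Gpi1, and its sign changed with the scaling of the libraries.

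**Figure D1:**
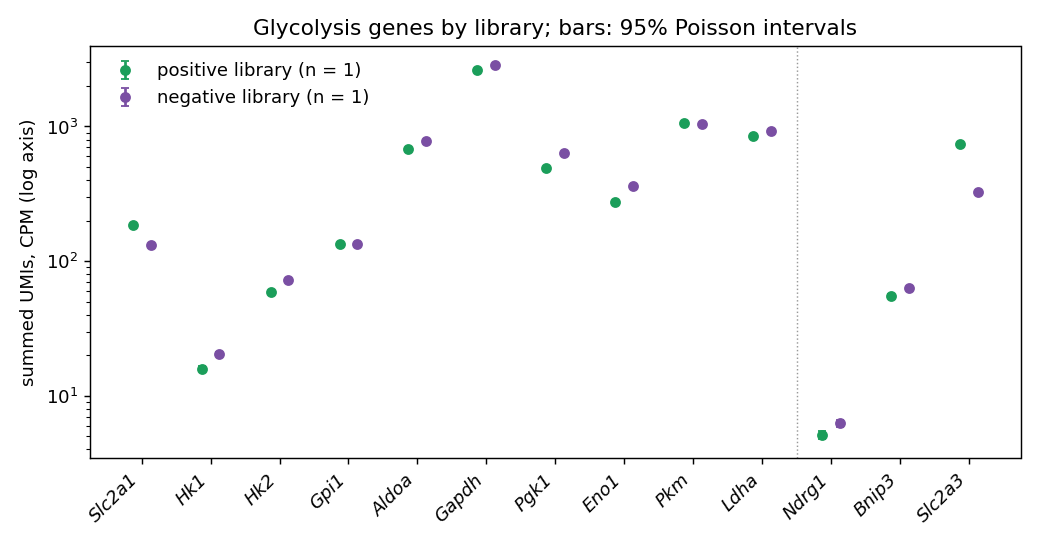
CPM of the 10 glycolysis genes, of the hypoxia genes Ndrg1 and Bnip3 and of the second glucose transporter Slc2a3 in the positive and negative library (log axis, 1 library per group, bars are Poisson intervals and mostly smaller than the points). Points of a pair lie close together except for the transporters, with Slc2a3 at 741 and 328 CPM.

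Of the 33 further pathway genes, 14 had enough UMIs for the ratio. Their counts are on the CPM scale, where 17.6% of all genes were at least 1.5 times higher and 4.89% lower, and were not repeated with TMM factors. At least 1.5 times higher in the positive library were 2, Slc2a3 and the lactate and pyruvate carrier Slc16a1 (42.8 against 27.4 CPM). At least 1.5 times lower were also 2: Ldhb, the dehydrogenase subunit that favours lactate use (253 against 413 CPM), and Pdk1, a kinase that restrains pyruvate entry into mitochondria (28.6 against 61.6 CPM, 2.15 times lower). The remaining steps were nearer, for example Tpi1 at 161 against 191 CPM and Pgam1 at 732 against 899 CPM. The hypoxia pair was at 55.5 CPM (54.2 to 56.7) against 63.3 (62.1 to 64.6) for Bnip3 and 5.12 (4.75 to 5.51) against 6.26 (5.87 to 6.66) for Ndrg1, both slightly lower in the positive library. Other hypoxia genes were divided: of 13 compared, 7 lay above 0 and 6 below, 5 being at least 1.5 times higher and 1 lower. Their median log2 ratio was 0.11, beside 0.14 over all genes.

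Differences of this kind were also present in positive-library cells in which neither Zscan4 nor GFP was detected among 10000 UMIs. Such cells are not free of the transcripts: over all their UMIs the class with 0 Zscan4 was still at 31.6 CPM of Zscan4 and the class with 0 GFP at 32.4 CPM of GFP. In those 1056 cells, Slc2a1 was 1.30 times (1.26 to 1.33) the level of the negative library, Pgk1 0.791 times (0.779 to 0.804) and Eno1 0.802 times (0.785 to 0.819). Hk2 was at 0.964 times (0.923 to 1.01) and Ldha within 0.991 to 1.01 times the negative library, closer to it than over the whole library. Depth, mitochondrial share and the endoderm list differed between the libraries as given above, and their part in these ratios was not tested.

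Within the positive library, cells were placed in classes by their Zscan4 UMIs among 10000: 1965 cells with 0, 1227 with 1 to 2, 718 with 3 to 9 and 492 with 10 or more. Every member was lower in the top class than in the class with 0, by unequal amounts. The median log2 ratio was -0.28 over the members and -0.10 over the 8427 genes compared. A list of 31 nuclear genes of oxidative phosphorylation had a median of -0.29 with 27 below 0, so that the members did not stand apart from it. Past a ratio of 1.5 there was 1 member lower, Hk2, and 0 higher, beside 16.1% of all genes lower and 15.8% higher. Under other settings 1 to 3 members were past 1.5 lower.

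Hk2 was at 66.5 CPM in cells with 0 Zscan4 UMIs, 59.8 with 1 to 2, 48.0 with 3 to 9 and 33.3 with 10 or more, 1.99 times (1.79 to 2.23) lower at the top. Hk1 was at 16.8, 16.3, 15.1 and 10.9 CPM in the same order, from 121 UMIs in the top class. Both hexokinases were thus lowest in the cells with most Zscan4.

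Ldha was at 910, 869, 770 and 641 CPM across the Zscan4 classes, 1.42 times (1.39 to 1.46) lower at the top. Eno1 was at 292, 278, 264 and 221 CPM, and Pgk1 at 504, 492, 482 and 422 CPM. Together with Gpi1 (137, 134, 128 and 127 CPM) these were the 6 members lower at each step of the series. Slc2a1 was at 186, 192, 180 and 151 CPM, Aldoa at 691, 694, 659 and 615 CPM, Gapdh at 2685, 2716, 2627 and 2326 CPM, and Pkm at 1063, 1072, 1086 and 977 CPM. These 4 were highest in an intermediate class and lowest in the last.

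Among the further pathway genes 13 could be compared between the extreme Zscan4 classes. Of these, 3 were past 1.5, all lower, beside 16.1% of all genes lower and 15.8% higher. They were Pfkp (log2 ratio -0.64), a subunit of phosphofructokinase, the committing step, Ldhb (-0.67) and Pdk1 (-0.84). Tpi1 (-0.55) and Pgam1 (-0.57) fell short of it. Bnip3 had the other sign, with 51.5 CPM at 0 Zscan4 UMIs and 68.5 CPM at 10 or more. The median UMIs per cell went from 32800 to 20361.5 between these classes, the median mitochondrial share from 2.37% to 3.20%, the stem cell identity list from 2889 to 1199 CPM and the endoderm list from 1133 to 837 CPM. Their part in the result was not tested.

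By the reporter transcript itself the members differed less. The classes held 1696 cells with 0 GFP UMIs among 10000, 1288 with 1 to 2, 843 with 3 to 5 and 575 with 6 or more. The median log2 ratio of the top class over the class with 0 was 0.00 over the members and -0.13 over the 8224 genes compared, and none of the members was past 1.5, beside 8.52% of all genes higher and 11.0% lower. Hk2 was at 66.9, 58.2, 50.3 and 46.4 CPM in order of GFP, Hk1 at 17.6, 15.7, 14.6 and 12.3 CPM, and Ldha at 904, 841, 827 and 759 CPM. Eno1 was at 282, 277, 276 and 268 CPM. The hexokinases, Eno1 and Ldha were therefore lower at each step by either marker of the 2C-like state. Eno1 was so by little along GFP, and with median-of-ratios scaling its log2 ratio there was 0.029. Slc2a1, in contrast, was at 176, 189, 194 and 187 CPM, a difference whose sign depended on how the UMIs were summed. Gapdh (2650 to 2795 CPM), Aldoa (688 to 696 CPM), Pgk1 (493 to 499 CPM), Pkm (1037 to 1080 CPM) and Gpi1 (135 to 133 CPM) differed by less than 1.1 times between the extreme classes. Of 13 further pathway genes, 1 was past 1.5, Pdk1, with 34.0 CPM at 0 GFP UMIs and 19.4 CPM at 6 or more. Across these classes the median depth went from 32790.5 to 23968 UMIs and the stem cell identity list from 2819 to 1673 CPM, whose part was not tested.

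**Figure D2:**
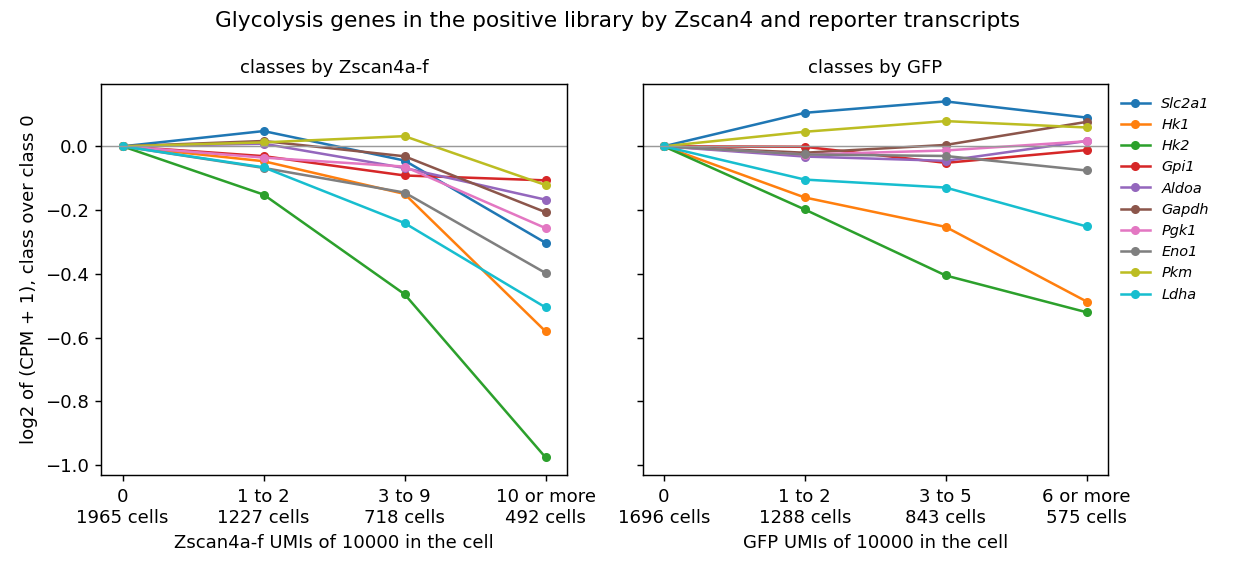
Log2 of (CPM + 1) of each glycolysis gene in a class of positive-library cells over the class with 0 UMIs, by Zscan4a-f UMIs (left) and by GFP UMIs (right) among 10000; lines join the classes of 1 gene. Hk2 ends lowest in both panels, at -0.98 and -0.52.

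Along the hypoxia genes nearly all members were higher together. Cells were placed in classes by the sum of their Ndrg1 and Bnip3 UMIs among 10000: in the positive library 2916 cells had 0, 904 had 1, 399 had 2 to 3 and 183 had 4 or more, and in the negative library 2450, 791, 369 and 214 cells. Between the top class and the class with 0, 9 of the 10 members were at least 1.5 times higher in each library and 0 were lower. With a top class of 2 or more UMIs the positive-library count was 5, beside 3.10% of all genes. Over all genes compared, 5.68% were at least 1.5 times higher and 1.93% lower in the positive library, and 4.44% higher and 1.97% lower in the negative library. The median log2 ratio of the members was 0.88 in the positive and 0.89 in the negative library, beside 0.03 and -0.01 over all genes compared. The exception in both libraries was Gapdh, higher by 1.31 times (1.29 to 1.33) and 1.44 times (1.43 to 1.46). Ndrg1 and Bnip3 defined the classes, so their own difference is not a result. Bnip3 supplied most of their UMIs, with 7671 against 708 of Ndrg1 in the positive library and 9908 against 979 in the negative. The classes therefore mainly follow Bnip3.

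Slc2a1 was at 161, 184, 268 and 415 CPM across the hypoxia classes of the positive library, and at 103, 136, 226 and 310 CPM in those of the negative library. The top class was 2.58 times the class with 0 in the positive library (2.463 to 2.699) and between 2.87 and 3.14 times in the negative. The transporter was thus higher at each step in both libraries, starting from a lower level in the negative one, although from cell to cell its correlation with Bnip3 was weak (r = 0.188 and 0.295).

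Pgk1 was at 431, 478, 715 and 1134 CPM in the positive library and at 494, 643, 1086 and 1691 CPM in the negative, 2.63 times (2.559 to 2.705) and 3.42 times (3.36 to 3.49) from the first class to the last. It was the member with the largest difference in both, although in the positive library its interval overlapped that of Slc2a1. Gpi1, level between the libraries, was at 123, 131, 171 and 256 CPM and at 113, 132, 194 and 298 CPM, so that it was 2.09 and 2.65 times higher at the top. Aldoa was at 627, 688, 875 and 1190 CPM and at 660, 777, 1136 and 1573 CPM, 1.90 and 2.38 times higher. For these 3 enzymes the ratio was larger in the negative library, and whether the libraries differ in it could not be tested.

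Ldha was at 784, 874, 1116 and 1483 CPM in the positive and 816, 975, 1261 and 1491 CPM in the negative library. Hk2 was at 56.3, 56.6, 70.2 and 101 CPM and at 66.5, 71.8, 91.3 and 126 CPM. Both reached between 1.79 and 1.90 times their lowest class. Hk2 thus ran opposite ways with the markers of the 2C-like state and with the hypoxia genes, as did Ldha, Hk1 and, by little along GFP, Eno1. Between the extreme classes of Zscan4 alone, all 10 members were lower, and all 10 were higher between those of the hypoxia genes.

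Hk1 (15.4 to 27.5 CPM and 19.2 to 33.2 CPM), Eno1 (260 to 427 CPM and 325 to 571 CPM) and Pkm (1012 to 1541 CPM and 973 to 1476 CPM) were higher in the top class by between 1.52 and 1.79 times. All 10 members were higher at each step in the negative library, and 8 in the positive library, where Hk1 was at 15.2 CPM and Gapdh at 2603 CPM in the class with 1 UMI, at or below the class with 0.

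**Figure D3:**
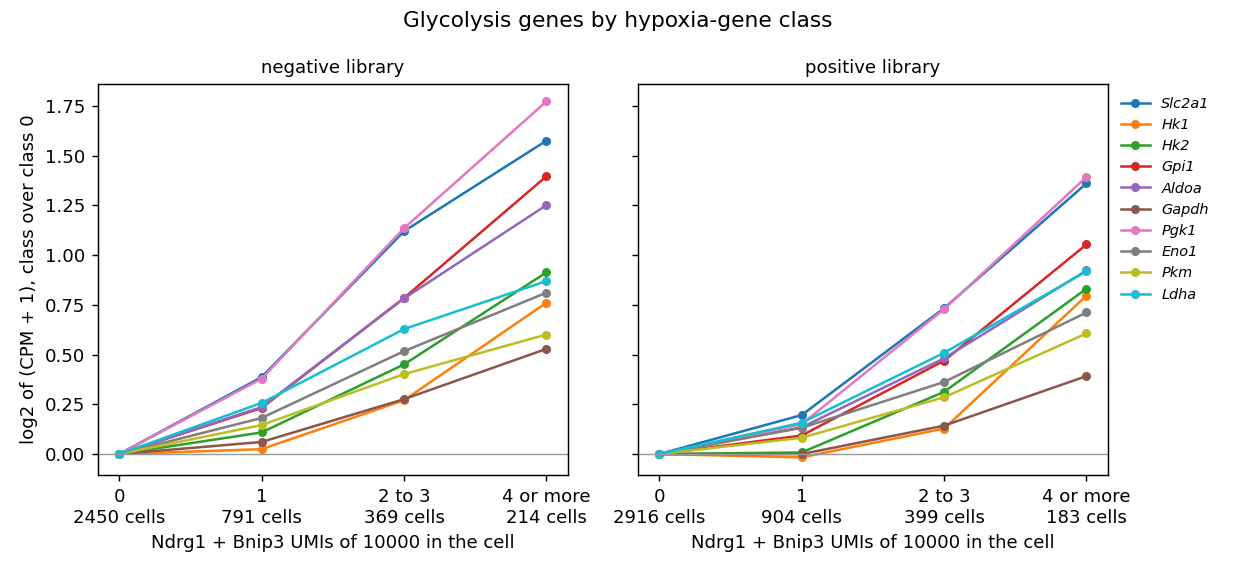
Log2 of (CPM + 1) of each glycolysis gene in a class of cells over the class with 0 Ndrg1 and Bnip3 UMIs among 10000, in the negative (left) and positive (right) library; lines join the classes of 1 gene. All 10 lines end above 0 in both panels, from 0.53 for Gapdh to 1.77 for Pgk1 on the left and from 0.39 to 1.39 on the right.

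Of the further genes of the pathway, 7 were at least 1.5 times higher in the top hypoxia class of both libraries. In the positive library 8 of 14 were at least 1.5 times higher in the top hypoxia class and 0 lower, and in the negative library 8 of 15 were higher and 1, the muscle enolase Eno3, lower. Over all genes compared, 5.68% and 4.44% were higher and 1.93% and 1.97% lower. The lactate exporter Slc16a3 (Mct4) was highest, with 17.0 against 105 CPM in the positive and 11.5 against 81.3 CPM in the negative library. Aldoc, a second aldolase, was at 9.85 against 48.3 CPM and 8.65 against 54.8 CPM. Tpi1, which interconverts the triose phosphates, was at 135 against 387 CPM and 154 against 418 CPM. Pfkp, Pfkl, the transporter chaperone Bsg and Pdk1 were also past 1.5 in both. Slc2a3 was past it in the negative library alone, with ratios of 1.32 (1.29 to 1.36) in the positive and 1.92 (1.86 to 1.99) in the negative library. Pfkfb3, which makes an activator of phosphofructokinase, was called in the positive library alone (3.49 against 12.4 CPM), since its 2.75 against 9.67 CPM in the negative library stayed under the level required. Slc16a1, which takes up or releases lactate, was at 42.3 against 44.4 CPM and 26.8 against 32.7 CPM.

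Nuclear genes of oxidative phosphorylation, whose median lay near the members' between the libraries (-0.18) and along Zscan4, did not do so here: of 31 compared, 0 were past 1.5 in either direction in either library, with median log2 ratios of -0.17 and -0.11. Of 14 other hypoxia genes, 11 in the positive and 10 in the negative library were at least 1.5 times higher in the top class, among them Egln3, an oxygen-sensing hydroxylase (6.40 against 59.5 CPM and 5.03 against 47.8 CPM). Median depth in the top class was 26811 UMIs against 31065.5 in the positive and 34392.5 against 39602.5 in the negative library. The endoderm list was at 781 against 1131 CPM and 248 against 503 CPM, and the stem cell identity list at 1932 against 2617 CPM and 2738 against 2917 CPM. What part these had was not tested.

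Top-class hypoxia cells made up 4.16% (3.59 to 4.79) of the positive library and 5.60% (4.89 to 6.37) of the negative. By Zscan4 class their share lay between 3.86% and 4.46%, with overlapping intervals, and by GFP class it was 4.01% (3.13 to 5.06) at 0 UMIs and 6.26% (4.42 to 8.56) at 6 or more. Set side by side within each hypoxia class, 8 members kept the direction they had between the whole libraries. Slc2a1 was higher in the positive library in all 4 classes, at 1.56, 1.36, 1.19 and 1.34 times the negative library. Pgk1 was lower in all 4, at 0.872, 0.744, 0.658 and 0.671 times. Eno1 (0.719 to 0.801 times), Hk1 (0.725 to 0.827 times), Hk2 (0.769 to 0.846 times), Aldoa (0.756 to 0.950 times) and Gapdh (0.867 to 0.953 times) were also lower in every class, although the interval for Hk1 in the top class, 0.668 to 1.02, included no difference. Ldha was at 0.961, 0.897, 0.885 and 0.994 (0.966 to 1.02) times, the last again including no difference. The other 2 did not keep to one side: Gpi1 was at 1.09 (1.07 to 1.12), 0.992, 0.877 and 0.861 (0.804 to 0.922) times the negative library, and Pkm at 1.04, 0.995, 0.959 and 1.04 times. Slc2a3 was further apart than any member, from 2.37 times in the class with 0 to 1.63 times in the top class.

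From cell to cell the members were weakly to moderately correlated. Over 4402 positive-library and 3824 negative-library cells, all thinned to 10000 UMIs, the 45 pairs had a median Pearson r of 0.16 (0.00447 to 0.393) and 0.19 (-0.0181 to 0.481), on log2(UMIs + 1). The cells of a library share its preparation, and thinned counts are sparse, so values near 0 carry little. In the positive library the closest pair was Aldoa with Ldha (0.393, against 0.426 in the negative). In the negative library it was Aldoa with Pgk1 (0.481, against 0.350 in the positive, behind 4 other pairs). Bnip3 stood as close to Pgk1 as members stood to one another, at 0.297 and 0.480. Hk1, with a mean of 0.158 and 0.210 UMIs per cell, had an r of at most 0.062 with any member. Hk2 was at most 0.162 with any, the highest being with Ldha in the positive library.

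**Figure D4:**
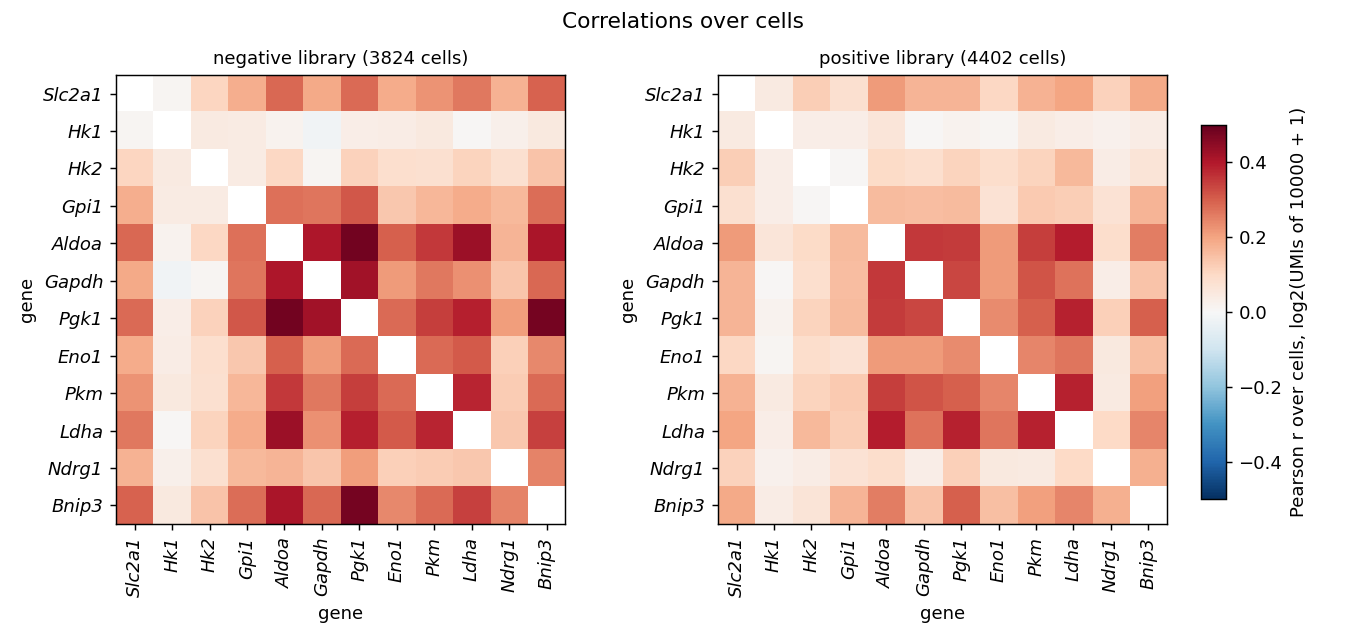
Pearson r over cells between the glycolysis genes, Ndrg1 and Bnip3 in the negative (3824 cells) and positive (4402 cells) library, on log2 of (UMIs of 10000 + 1); colours run from blue below 0 to red above 0, and the diagonal is blank. Aldoa, Gapdh, Pgk1, Pkm and Ldha form the darkest block, with Bnip3 beside Pgk1 at 0.480 on the left, while the Hk1 and Hk2 lines are pale.

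The genes outside the list whose UMIs followed the members' sum most closely included the glycolytic enzymes Pgam1 and Tpi1 in both libraries. In the positive library, among 3016 genes with a mean of at least 0.5 UMIs per cell, these were Pgam1 (r = 0.440) and Tpi1 (0.393), the cytokine Mif (0.438), the peptidyl-prolyl isomerase Ppia (0.354) and the uridine phosphorylase Upp1 (0.326). In the negative library, among 2752 genes, they were Bnip3 (0.517), Tpi1 (0.438), Pgam1 (0.416), Upp1 (0.414) and Mif (0.408). Of the 5 in each library, 4 were in both, and Bnip3 came next in the positive library (0.324).

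Slc2a1 and Slc2a3 parted along the primitive endoderm genes, a description added after the data were seen. Primitive endoderm is the extraembryonic lineage that stem cell cultures also produce, and cells with 50 or more UMIs of its 16 genes among 10000 were 296 of the positive and 97 of the negative library, set against 2378 and 3343 cells with under 5. Slc2a1 was at 208 CPM in cells with under 5 and 50.3 CPM in cells with 50 or more in the positive library, and at 137 and 35.9 CPM in the negative, which is 4.13 times (3.76 to 4.54) and 3.81 times (3.21 to 4.55) lower. Slc2a3 went the other way, from 690 to 1160 CPM and from 315 to 645 CPM. The balance of these transporter transcripts thus differed between the cell classes in the same direction in both libraries. Other measures also differed between these extreme classes: the hypoxia pair was at 61.0 against 49.6 CPM in the positive and 72.0 against 34.0 CPM in the negative library. In the positive library the pair was at 53.7, 84.7 and 84.3 CPM in the classes between, so it did not follow their order. Top-class hypoxia cells were 4.63% (3.82 to 5.55) against 1.69% (0.551 to 3.90, 5 cells) in the positive library. In the negative library they were 5.83% (5.06 to 6.68) against 1.03% (0.0261 to 5.61, 1 cell). The intervals overlapped in each library. The stem cell identity list was at 2793 against 640 CPM and 2985 against 922 CPM. Their part in the Slc2a1 difference was not tested.

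Of the members, 3 in the positive library (Slc2a1, Aldoa and Hk1) and 2 in the negative (Slc2a1 and Aldoa) were at least 1.5 times lower in the endoderm-rich class, and 0 were higher. All genes gave 17.0% lower and 13.8% higher in the positive library, and 12.7% lower and 19.4% higher in the negative. The members' median log2 ratio was -0.29 and -0.25, beside -0.08 and 0.02 over all genes. Aldoa was at 723 against 459 CPM and at 790 against 504 CPM. Ldha (884 against 813 CPM and 932 against 852 CPM) and Gpi1 (132 against 129 CPM and 134 against 120 CPM) were close. Outside the members, Ldhb (299 against 40.1 CPM and 433 against 66.7 CPM) and Pdk1 (32.4 against 8.40 CPM and 64.7 against 14.6 CPM) were lower in the endoderm-rich class of both libraries, while Pfkl and Bsg were at least 1.5 times higher there. Pgam2, the muscle phosphoglycerate mutase, was at 1.96 against 45.4 CPM in the negative library and at 3.48 against 9.97 CPM in the positive, where it stayed under the level required. Slc2a3, Pdk1 and Ldhb are thus genes that differed both between the libraries and along the endoderm genes, whose level also differed between the libraries; that part was not tested. Slc2a1 was higher in the library with more endoderm transcripts and lower in its endoderm-rich cells.

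**Figure D5:**
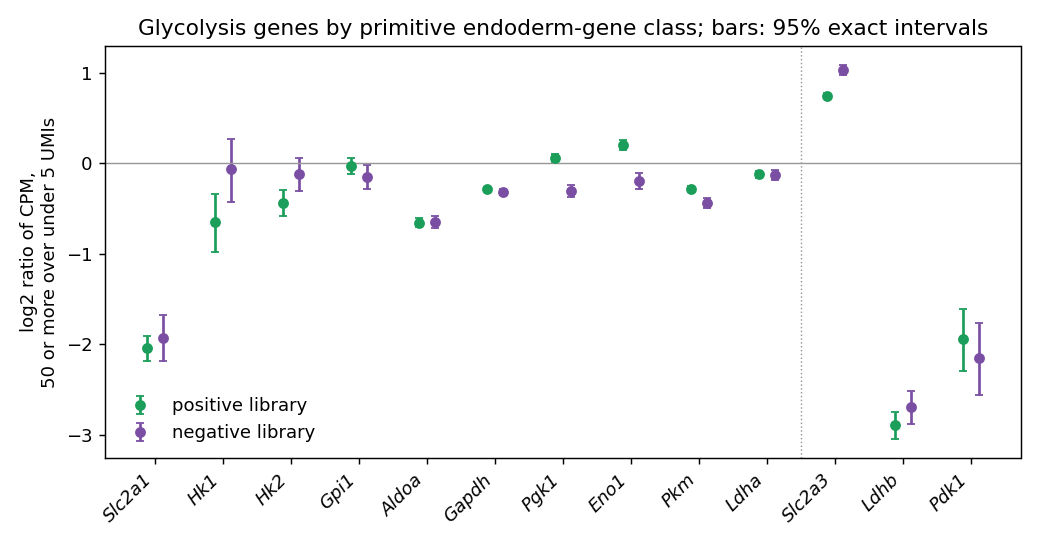
Log2 ratio of CPM in cells with 50 or more primitive endoderm UMIs of 10000 over cells with under 5, for the 10 glycolysis genes and for Slc2a3, Ldhb and Pdk1, by library (bars are exact intervals for counting error). Slc2a1, Ldhb and Pdk1 lie far below 0 and Slc2a3 above 0 in both libraries, and the other members lie nearer 0.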

How the data were processed

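Per the file headers and values, the authors deposited whole-number counts per feature and cell for each library as sparse matrices, read here as UMIs because every cell has a barcode of 16 bases. The labels' extraction text describes bulk RNA kits, so the capture method is not given in the sources used here. The submitters' processing notes name FastQC 0.11.2, Trim Galore 0.6.4, STAR 2.7.6a and the build mm10, without roles. Of 55414 Ensembl IDs, 52133 are in GENCODE M21, from which coordinates come, and 901 symbols repeat.

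Cells were kept with at least 1000 UMIs, 500 genes and at most 20% mitochondrial UMIs. No doublet caller was run, and an alternative drops cells whose UMIs exceed the library median 2 times over. UMIs were summed per library or class and scaled to CPM, with exact Poisson intervals, exact conditional intervals for ratios and exact binomial (Clopper-Pearson) ones for shares. Log2 ratios use CPM + 1. Classes come from counts thinned to 10000 UMIs per cell, and classes under 50 cells were joined to the next lower one. The ratio of 1.5 applies to genes with at least 10 CPM in a group and 50 UMIs in all. It describes these libraries and tests nothing.

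Named genes are the members, the hypoxia pair, pathway and hypoxia-list genes with at least 10 CPM in a library, and the 5 genes most like the members' sum in each library. Others were named after their values were seen. The rule for the members uses no value, but the members, lists and comparisons were chosen with earlier results of these data known. Alternatives changed cell filters, scaling (including TMM from edgeR 4.0.16), pseudocount, ratio, thinning and classes. Steps were tested on simulated data. The scripts ran on R 4.3.3 and on Python 3.11.15 with pandas 2.3.3, scipy 1.17.1 and numpy 2.4.6.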

Additional observations from a re-analysis of the deposited data

How the results depend on the processing

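Of 650 values of single members under alternative settings, 405 moved by less than their counting interval, 235 moved by more and 10 reversed. The 405 include values that a setting could not change, so their share does not measure stability. Other ratio cuts and another gene filter leave a single ratio between the libraries as it is. In the negative library the cell filter removed 0 cells. With TMM and with median-of-ratios factors the members' median log2 ratio between the libraries was -0.45 and -0.45, and 4 and 4 members were at least 1.5 times lower, while all genes moved to a median of -0.16 under both, with 16.1% and 15.9% of them lower and 8.60% higher with TMM. At a ratio of 5 to 4 in place of 1.5, 1 member was higher and 3 were lower between the libraries, beside 34.3% and 14.1% of all genes. Pkm reversed between the libraries, to -0.28 with TMM, -0.28 with median of ratios, -0.032 outside ribosomal protein and mitochondrial genes, -0.010 as a mean of cells' CPM, and -0.021 with positive-library cells of 0 Zscan4 and GFP UMIs alone. In those cells Ldha was at 0.0037. By Zscan4 class the number of members past 1.5 lower went from 1 to 2 with no filter on cells, outside ribosomal protein and mitochondrial genes, as a mean of cells' CPM and without cells of very high UMIs, and to 3 from thinned sums and from classes at 5000 UMIs, beside 16.7% to 18.8% and 19.2% to 21.15% of all genes. By GFP class it went from 0 to 1 with no filter, as a mean of cells' CPM, at 5000 UMIs and in cells with 0 hypoxia-gene UMIs, beside 10.6% to 15.65% of all genes. The GFP median was 0.11 with median of ratios, where Eno1 was at 0.029. Slc2a1 by GFP class reversed to -0.10 as a mean of cells' CPM, -0.11 from thinned sums and -0.19 at 5000 UMIs. With 2 or more hypoxia-gene UMIs as the top class, the positive-library median was 0.56 and 5 members were past 1.5, beside 3.10% of all genes. Leaving out the cell filter also redrew the thinned counts of positive-library cells. The extreme Zscan4 classes then held 499 and 1943 cells in place of 492 and 1965. The causes were not tested. Classes by Ndrg1 alone, and hypoxia classes in positive-library cells with 0 Zscan4 and GFP UMIs, held under 50 cells and gave no value. No paired analysis was possible because a single library stands for either group. With 1 library per group, the precision over libraries is unknown and depth limits sparse genes such as Hk1, Ndrg1 and the pathway genes with too few UMIs to compare.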

Other observations

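Some of the difference in Slc2a1 between the libraries sat in few cells, a pattern noticed after the data were seen. Cells with at least 10 Slc2a1 UMIs among 10000 were 98 of 4402 in the positive library, or 2.23% (1.81 to 2.71), and 22 of 3824 in the negative, or 0.575% (0.3609 to 0.8697). They held 15.6% and 5.10% of the transporter's thinned UMIs, and the highest cell had 55 and 17. The mean over all cells was 1.89 and 1.33 UMIs, and over the remaining cells 1.63 and 1.27. In the positive library these cells had a mean of 1.84 Zscan4 UMIs against 4.35 in the others, and 78.7 UMIs of the other 9 members against 60.9. Their mean of hypoxia-pair UMIs was 1.79 against 0.627 in the positive and 2.91 against 0.731 in the negative library. For Pgk1 such cells were more frequent in the other library, although the highest cell had 68 UMIs in the positive and 51 in the negative library: cells with at least 20 UMIs were 32, or 0.727% (0.498 to 1.02), of the positive and 136, or 3.56% (2.99 to 4.19), of the negative library, and they had a mean of 5.03 hypoxia-pair UMIs against 0.621 in the other cells of the positive library and 4.04 against 0.622 in the negative.

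Among hypoxia-list genes, P4ha2, a collagen prolyl hydroxylase, was higher along the hypoxia classes as the members were (93.0 against 207 CPM in the positive and 10.2 against 23.8 CPM in the negative library), but differed from them elsewhere. It was at 107 CPM in the positive and 11.9 CPM in the negative library, between 8.58 and 9.45 times higher, and within the positive library it was at 79.5 CPM with 0 and 183 CPM with 10 or more Zscan4 UMIs, and at 59.6 CPM with under 5 and 422 CPM with 50 or more endoderm UMIs. Ddit4, a stress-induced inhibitor of growth signalling, was at 28.1 and 69.8 CPM in the extreme Zscan4 classes, opposite in direction to the members. The hypoxia list did not go one way there: of 14 genes, 3 were past 1.5 higher and 4 lower, with a median log2 ratio of -0.16. Over all genes, 15.8% were higher and 16.1% lower.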
